A study of Mus musculus with 2 samples.

Results

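The proteasome genes of LSKs were described from RNA-seq of BM cells before and after BA was switched on. LSKs lack lineage markers, carry Sca1 and c-Kit on their surface and include the stem and progenitor cells of the BM. The cells came from Scl/tTA-BA mice on a C57BL/6 background, which carry a BA (BCR/ABL) transgene that is off while doxycycline is in the drinking water. With the transactivator transgene Scl/tTA (Scl for stem cell leukemia), BA is made in stem and progenitor cells once the drug is withdrawn. The week-0 library is from mice still on doxycycline and the week-3 library is from mice withdrawn for 3 weeks, so BA expression and the absence of the drug cannot be told apart. Cells of 3 mice were mixed for each library, and the age of the mice is not given in the sources used here. There is 1 library per time point and no replicate, so every difference below is a difference between 2 libraries, and the spread between mice is unknown.

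Members were taken by name, as every gene of the deposited tables whose symbol starts with Psma, Psmb, Psmc, Psmd, Psme, Psmf or Psmg and a digit. After 4 pseudogenes named -ps were left out, 50 of 34745 genes remained. They hold 7 genes of the alpha ring, 4 structural and 3 catalytic genes of the constitutive beta ring, 3 immunoproteasome genes, 6 ATPases and 11 other subunits of the 19S particle, 3 chaperones of the 19S base, 4 chaperones of the 20S core, 5 activator genes and 1 inhibitor. The last 3 are Psma8 and Psmb11, which are restricted to testis and thymus in normal tissue, and Psmc3ip, a meiotic recombination factor that the name rule takes although it is not a proteasome subunit.

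The proteasome is the large protease that destroys proteins tagged with ubiquitin. Its 20S core is a barrel of outer alpha rings and inner beta rings, and only the beta subunits encoded by Psmb5 (chymotrypsin-like), Psmb6 (caspase-like) and Psmb7 (trypsin-like) cut peptide bonds. The 19S particle caps the barrel, removes ubiquitin and feeds unfolded protein in by means of its ATPase ring. In immune cells and under interferon, Psmb8, Psmb9 and Psmb10 take the places of Psmb5, Psmb6 and Psmb7 in newly built cores, and this immunoproteasome makes peptides suited to MHC class I. The same stimulus induces Psme1 and Psme2, the subunits of the PA28 cap. The transcription factor encoded by Nfe2l1 is known to raise the genes of constitutive subunits when proteasome activity falls short.

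Sequence around the RefSeq start is shown for the catalytic genes, because the comparison of constitutive and immune cores turns on their pairs. Psme1 is shown with them as the interferon-induced activator. Each run of 300 bases reaches from 250 bases before to 50 bases after a gene's start in RefSeq (GRCm38.p6), written from 5′ to 3′ on the strand of the gene. Capitals mark a match, on either strand, to the antioxidant response element TGACNNNGC, the interferon-stimulated response element (GAAA, 2 bases of any kind, GAAA) or the gamma-activated site TTCNNNGAA, where N is any base.
Psmb5, chr14:54617946-54618245, minus strand: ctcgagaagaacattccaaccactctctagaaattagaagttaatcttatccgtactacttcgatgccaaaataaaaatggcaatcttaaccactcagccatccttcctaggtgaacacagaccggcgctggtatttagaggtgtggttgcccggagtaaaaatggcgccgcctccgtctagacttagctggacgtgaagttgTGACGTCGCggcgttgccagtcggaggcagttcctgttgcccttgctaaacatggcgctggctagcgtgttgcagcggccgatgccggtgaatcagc
Psmb6, chr11:70525107-70525406, plus strand: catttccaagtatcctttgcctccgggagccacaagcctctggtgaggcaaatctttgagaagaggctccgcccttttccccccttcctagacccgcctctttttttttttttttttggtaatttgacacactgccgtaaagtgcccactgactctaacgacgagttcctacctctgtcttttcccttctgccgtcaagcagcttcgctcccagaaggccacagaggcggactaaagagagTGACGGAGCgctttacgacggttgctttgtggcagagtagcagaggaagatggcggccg
Psmb8, chr17:34197945-34198244, plus strand: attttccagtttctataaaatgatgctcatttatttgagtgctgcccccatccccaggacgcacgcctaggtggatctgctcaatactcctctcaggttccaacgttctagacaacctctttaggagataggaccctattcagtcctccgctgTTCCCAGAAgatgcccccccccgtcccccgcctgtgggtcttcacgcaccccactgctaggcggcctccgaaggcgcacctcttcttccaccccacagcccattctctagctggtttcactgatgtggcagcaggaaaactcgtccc
Psmb9, chr17:34187281-34187580, minus strand: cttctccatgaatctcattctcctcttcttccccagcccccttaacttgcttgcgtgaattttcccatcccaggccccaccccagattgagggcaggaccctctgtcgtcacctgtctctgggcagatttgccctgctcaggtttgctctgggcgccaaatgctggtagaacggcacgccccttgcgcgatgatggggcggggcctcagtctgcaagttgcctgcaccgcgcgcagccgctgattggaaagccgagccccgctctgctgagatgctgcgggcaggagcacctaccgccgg
Psmb10, chr8:105938343-105938642, minus strand: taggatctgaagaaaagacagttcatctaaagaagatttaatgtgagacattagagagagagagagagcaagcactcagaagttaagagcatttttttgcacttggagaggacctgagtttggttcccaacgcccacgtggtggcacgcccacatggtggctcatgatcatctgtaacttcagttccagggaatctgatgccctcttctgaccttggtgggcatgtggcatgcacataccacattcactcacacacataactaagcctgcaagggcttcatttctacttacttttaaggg
Psme1, chr14:55578244-55578543, plus strand: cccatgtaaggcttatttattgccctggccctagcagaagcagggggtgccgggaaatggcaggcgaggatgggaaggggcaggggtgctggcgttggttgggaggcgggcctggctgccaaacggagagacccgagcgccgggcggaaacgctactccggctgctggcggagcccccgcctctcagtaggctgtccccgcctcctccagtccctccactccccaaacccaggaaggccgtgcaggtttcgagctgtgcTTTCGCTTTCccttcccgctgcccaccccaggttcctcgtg
RefSeq windows were found for 42 of the 50 genes, and Psmb7, Psmd7 and Psmg2 are among those with none. The 42 genes have 45 windows, and a gene is counted when any of its windows matches. Shares of genes are thus set beside shares of single windows, which are not quite the same measure. The antioxidant element bound by Nfe2l1 and Nfe2l2 was present in the windows of Psmb5 and Psmb6 and in those of Psmc6, Psmd9, Psmd12 and Psme4. These 6 genes are 14.3% of the 42, near the 12.4% found over 32851 promoter windows of all genes. The interferon-stimulated element was found for 5 genes, namely Psmb3, Psmd4, Psmd9, Psme1 and Psmg4, or 11.9% against 3.44% of all windows. The gamma-activated site was found for 3 genes, Psmb8, Psmd2 and Psmg1, or 7.14% against 8.30%. The windows of Psmb9 and Psmb10 held none of these elements. The windows of Psmb8, Psmb9 and Psme1 lie wholly inside the coordinates counted for these genes. Sequence at and before the outer 5′ end of these genes was therefore not searched. The median share of G and C bases was 57.3% in the 45 windows and 52.7% in all windows, and its part in the matches was not tested. A GC box (GGGCGG, either strand) was present for 54.8% of the genes and in 35.7% of all windows, and a CCAAT box (CCAAT, either strand) for 35.7% and 37.4%. These are matches of letters within a short window and say nothing of binding.

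Reads counted on genes numbered 6356164 for week-0 and 3886695 for week-3, and those on the members 49790 and 43401. The smallest level the depth can show, 3 reads, was 0.472 and 0.772 CPM, which are counts scaled to a common library total. In bulk RNA, fewer cells of a type and less RNA per cell cannot be told apart. Sorting genes were present in both libraries, with Kit at an FPKM of 16.9 and 11.5 and Ly6a, which encodes Sca1, at 19.8 and 14.8, but genes of other cell types differed. Of the 5 LSK genes, 3 fell and none rose by the limit of 1.5 times used below, beside 24.0% and 23.9% of all genes. Their summed level was 2071 and 863 CPM. The summed level of 5 mast cell genes went from 139 to 2432 CPM, with all 5 risen, beside 23.9% of all genes. That of 4 neutrophil genes went from 118 to 484, mostly from S100a8, with 519 and 1139 reads, while Ly6g had 5 and 5. Summed levels of 4 B-lineage or plasma cell genes (859 to 25.99 CPM) and 4 erythroid genes (809 to 48.6) were lower at week-3. Jchain gave most of the B-lineage sum, with 5120 and 96 reads, while Ms4a1 had 9 and 2. The sum of 4 dendritic cell or macrophage genes (441 and 21.6) came almost wholly from the class II genes Cd74, with 2505 and 47 reads, and H2-Aa, with 288 and 24, while Itgax had 8 and 8 reads and Adgre1 3 and 5. The 4 T cell genes had 14 and 3 reads in all, and Cd3e and Cd8a were at 0 reads at week-3. The part of these cell type differences in the proteasome values was not tested.

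Proteasome genes were, as a group, higher in the week-3 library. The members' share of all reads was 0.783% before and 1.12% after withdrawal, a ratio of 1.43 and a log2 ratio of 0.51 (95% interval 0.49 to 0.53). Here and below, a change is the log2 of the ratio of both FPKM values, week-3 divided by week-0, and its interval is an exact Clopper-Pearson interval from the reads of both libraries. FPKM is meant to scale the fragments of a gene by its exon length and by the size of the library. Such intervals hold counting error and nothing else, and they take each read as independent. Amplified cDNA can give several reads from 1 molecule, so the intervals can be too narrow even for counting error. With at least 20 reads over both libraries and reads in each, 49 members were compared, and Psmb11, with 2 reads and 0 reads, was not. Their median log2 ratio was 0.53, and the median of all 12082 genes with as many reads was 0.07. TMM scaling, which edgeR offers, lowers every log2 ratio by 0.11, so members and all genes move together and their distance stays the same.

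A gene is said to have risen when its ratio was at least 1.5 and to have fallen when it was at most 1 over 1.5. By this rule 19 of the 49 members rose, 38.8%, beside 23.9% of all genes. One member fell, 2.04%, beside 24.0% of all genes. Among genes with at least 100 reads, 19 of 47 members rose and 0 fell, beside 21.8% and 19.9% of all genes. Few members moved far, since 2 reached a ratio of 2 (4.08%, beside 10.6% of all genes) and 1 fell as far (2.04%, beside 14.9%). Both of the former have over 100 reads, which leaves 4.26% of the members with that depth beside 7.51% of such genes. The ratio was above 1 for 43 members, 87.8%, beside 53.8% of all genes, and for 38 members, 77.6%, beside 34.3%, the whole counting interval was. The interval lay wholly above the median ratio of all genes for 36 members, 73.5%, beside 30.5%, and wholly below it for 2, 4.08%, beside 30.7%. Members are more deeply covered, with at least 1000 reads for 35 of 49 against 1951 of 12082 genes, and deeper genes have narrower intervals, so the shares of intervals are not compared at equal depth. Among genes with that depth the median log2 ratio was 0.55 for members and 0.12 for all genes. With TMM scaling 12 members rose, beside 19.3% of all genes, and Psma6, Psmb3, Psmd2, Psmd5, Psmd11, Psmd14 and Psmg1 no longer reached the limit. Most members thus had a ratio of moderate size above 1, and the only one that fell was Psma8.

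**Figure D1:**
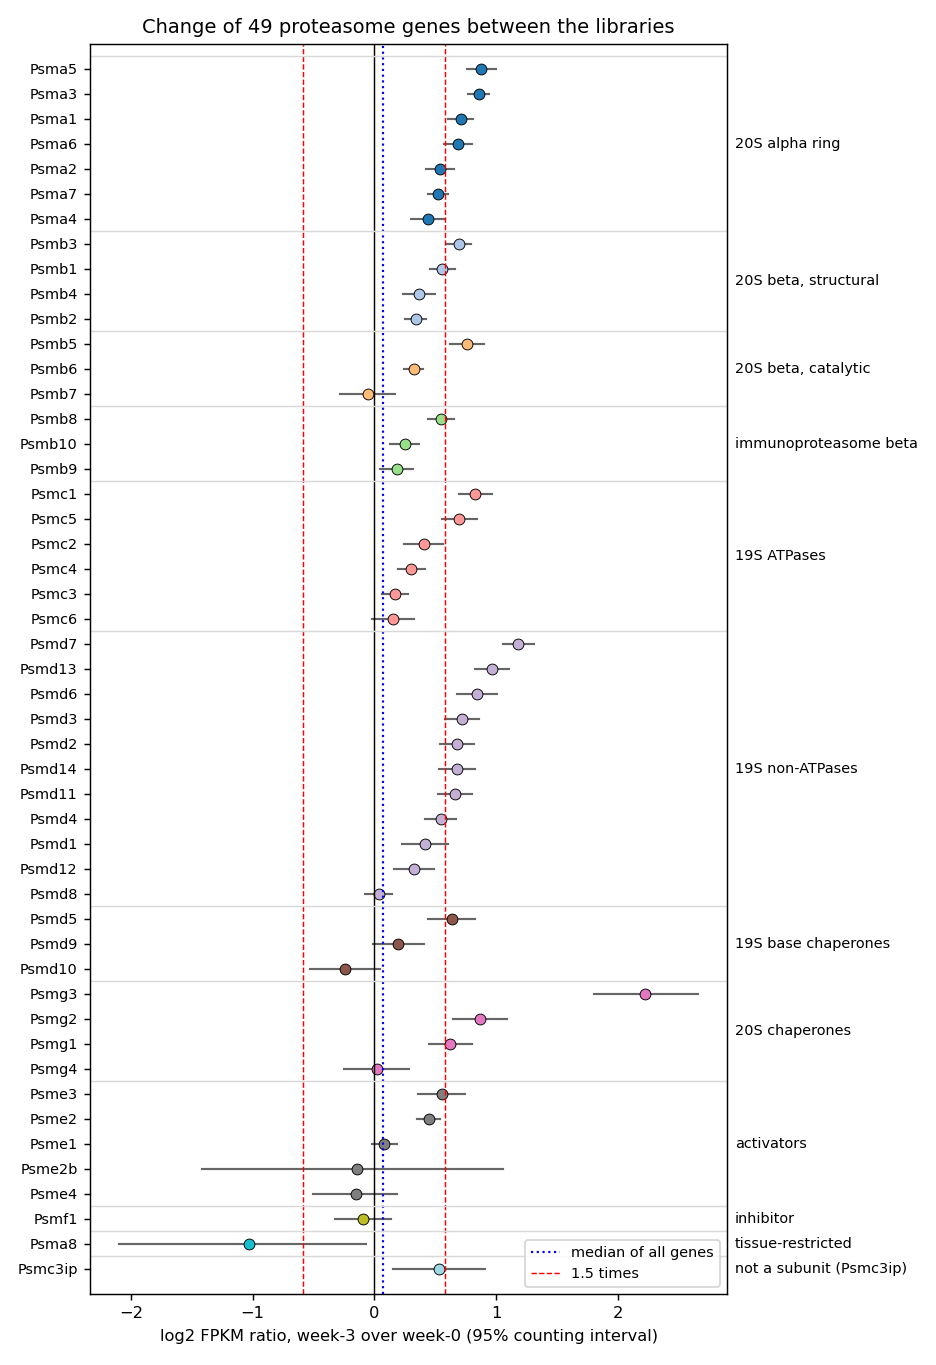
Log2 FPKM ratio of week-3 over week-0 (x axis) for the 49 members compared, in rows grouped by role. Points are the ratios, bars are 95% counting intervals, the dotted line is the median of all genes (0.07) and dashed lines mark 1.5 times in either direction. Most points lie to the right of the dotted line, with Psmg3 at 2.23 and Psma8 at -1.03 as the extremes.

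The alpha ring, which gates the entrance of the core, was higher throughout. All 7 of its genes lay above the median of all genes, with log2 ratios from 0.44 to 0.88 and an SD between genes of 0.17. Of these 4 rose, 57.1% beside 23.9% of all genes, and 3 with TMM scaling, 42.9% beside 19.3%. Psma5 had 1079 reads at week-0 against 1214 at week-3, with an FPKM of 110.3 and 203 (log2 ratio 0.88, interval 0.76 to 0.999). Psma3 followed, with 2143 and 2373 reads and an FPKM of 53.9 and 97.6 (0.86, interval 0.77 to 0.94). Psma1 and Psma6 also rose, with log2 ratios of 0.71 and 0.69. Psma2 (0.54), Psma7 (0.52) and Psma4 (0.44) stayed under the limit. The reads of the ring summed to a log2 ratio of 0.67 (interval 0.63 to 0.71), and the intervals of 2 of the 7 genes held that value. As the intervals can be too narrow for amplified cDNA, this does not settle whether counting error covers the differences between genes.

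The structural beta genes Psmb1 to Psmb4 had log2 ratios of 0.56, 0.34, 0.69 and 0.37, and their summed reads gave 0.49 (interval 0.44 to 0.54). Psmb3 was the only one of these 4 to rise, 25% beside 23.9% of all genes, and 0 rose with TMM scaling. It had 1770 and 1752 reads and an FPKM of 109 and 176. Psmb2 had the most reads of the 4, 2619 and 2027.

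The 3 constitutive catalytic genes went apart. Psmb5 (ENSMUSG00000022193, GRCm38 chromosome 14, from 54614120 to 54617995) had 868 and 900 reads, and its FPKM was 157 and then 266, a log2 ratio of 0.76 (interval 0.63 to 0.90). Psmb6 (ENSMUSG00000018286, chromosome 11, from 70525367 to 70527858) had 3075 and 2356 reads and an FPKM of 156 and 195 (0.33, interval 0.25 to 0.40). Psmb7 (ENSMUSG00000026750, chromosome 2, from 38588036 to 38644087) had 440 and 259 reads and an FPKM of 19.4 and 18.7 (-0.05, interval -0.28 to 0.17). The intervals of the 3 genes do not overlap each other, and only Psmb5 rose, 33.3% of the 3 beside 23.9% of all genes. Of the exon bases annotated for Psmb7, 405 of 3421 are shared with Nek6 on the opposite strand, and the kit is not stated to keep the strand, so some of its reads could belong to either. Nek6 had 405 and 172 reads, and the part of these in the Psmb7 values was not tested.

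The immunoproteasome genes were expressed at both time points, and none of the 3 rose or fell, beside 23.9% and 24.0% of all genes. Psmb8 (ENSMUSG00000024338, chromosome 17, from 34197721 to 34201454) had 1591 and 1422 reads and an FPKM of 65.0 and 95.1, a log2 ratio of 0.55 (interval 0.44 to 0.65). Psmb9 (ENSMUSG00000096727, chromosome 17, from 34181988 to 34187764) had 1075 and 747 reads and an FPKM of 26.8 and 30.5 (0.18, interval 0.05 to 0.32). Psmb10 (ENSMUSG00000031897, chromosome 8, from 105935728 to 105938392) had 1386 and 1009 reads and an FPKM of 172 and 204 (0.25, interval 0.13 to 0.37). Psmb8 and Psmb9 are 9956 bases apart with Tap1 between them, yet their intervals do not overlap. Psmb9 shares 212 of its 3660 exon bases with Tap1 on the opposite strand. Tap1 had 959 and 638 reads, and the part of these in the Psmb9 values was not tested.

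Each immune subunit was set against the constitutive subunit it replaces, as the ratio of their reads, in which gene length and library scaling cancel. Psmb8 to Psmb5 was 0.862 times its week-0 value at week-3 (exact conditional 95% interval of the odds ratio 0.765 to 0.971). For Psmb9 to Psmb6 it was 0.907 (interval 0.813 to 1.011). For Psmb10 to Psmb7 it was 1.24 (interval 1.04 to 1.48). By these intervals the first pair shifted toward the constitutive gene and the last toward the immune gene. The Psmb9 pair showed no shift detectable at this depth. Both shifts have an interval that ends close to 1 and that can be too narrow for amplified cDNA. The exon bases that Psmb7 shares with Nek6 bear on the last pair as well, and their part was not tested. Over the 3 pairs together the ratio was 0.978 (interval 0.917 to 1.04), while the immune genes against all 14 constitutive core genes were at 0.867 (interval 0.825 to 0.912). With 1 library per time point these intervals do not include the spread between mice.

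**Figure D2:**
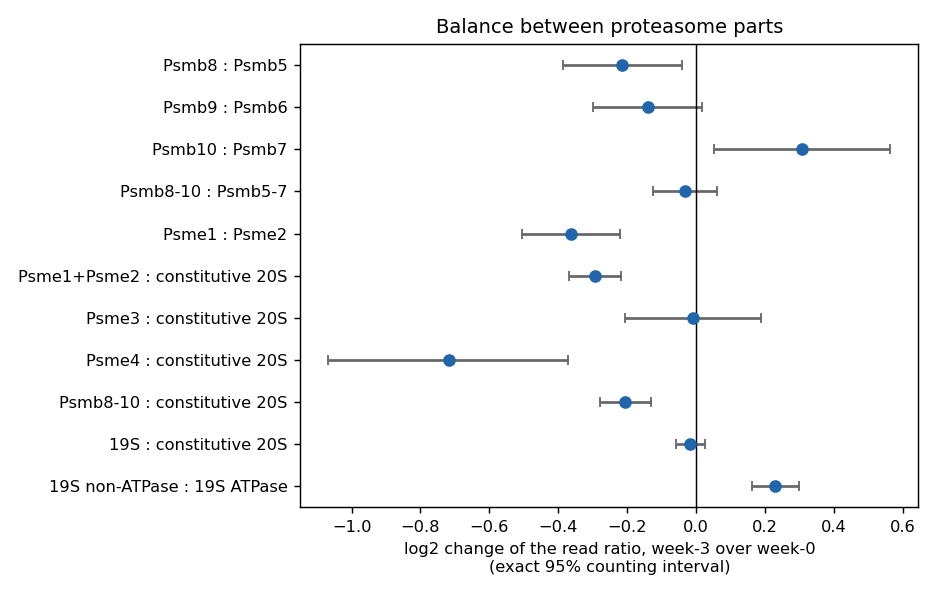
Log2 change, from week-0 to week-3, of the ratio of reads between parts of the proteasome (x axis), with exact 95% counting intervals, for the 11 ratios computed. The ratio of 19S to constitutive 20S genes lies at -0.02, the PA28 genes Psme1 and Psme2 lie below 0 and the 19S non-ATPases lie above 0 against the ATPases.

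The 19S particle and the core changed by the same amount within counting error. Constitutive core genes took 0.351% and 0.518% of the reads (log2 ratio 0.56, interval 0.54 to 0.59) and 19S genes 0.249% and 0.364% (0.55, interval 0.51 to 0.58). The ratio of 19S to core reads at week-3 was 0.988 times that at week-0 (interval 0.959 to 1.02). Of the 14 core genes 6 rose, and of the 17 genes of the 19S particle 9 rose, 42.9% and 52.9% beside 23.9% of all genes, and no gene of either part fell, beside 24.0%. With TMM scaling 4 and 6 rose, 28.6% and 35.3% beside 19.3%.

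Within the 19S particle the ATPases had the smaller ratio. The 6 ATPases, which unfold substrates, had log2 ratios from 0.15 for Psmc6 to 0.83 for Psmc1. Psmc1 had 820 and 892 reads and an FPKM of 84.99 and 151, and Psmc5 had 793 and 787 reads and an FPKM of 77.8 and 126. These 2 genes rose, 33.3% of the 6 ATPases beside 23.9% of all genes. Psmc2 (0.41), Psmc4 (0.30), Psmc3 (0.17) and Psmc6 did not pass the limit. Psmc3 shares 215 of its 2607 exon bases with Slc39a13 on the opposite strand. Slc39a13 had 184 and 40 reads, and the part of these in the Psmc3 values and the ATPase sum was not tested. Summed reads gave 0.40 for the ATPases (interval 0.35 to 0.46) and 0.63 for the 11 non-ATPases (interval 0.59 to 0.67). The ratio of non-ATPase to ATPase reads was 1.17 times higher at week-3 (interval 1.12 to 1.23).

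Among the non-ATPases 7 of 11 rose, 63.6% beside 23.9% of all genes, and 4 of 11 with TMM scaling, which takes Psmd2, Psmd11 and Psmd14 below the limit. Psmd7 (ENSMUSG00000039067, chromosome 8, from 107580381 to 107588482), which pairs with the deubiquitinase encoded by Psmd14, had 923 reads at week-0 against 1283 at week-3. Its FPKM was 90.8 and 206, a ratio of 2.27 and a log2 ratio of 1.18 (interval 1.06 to 1.31). Psmd13 had 782 and 936 reads and an FPKM of 19.03 and 37.2 (0.97, interval 0.83 to 1.11), and shares 342 of its 3377 exon bases with Sirt3 on the opposite strand. Sirt3 had 756 and 499 reads, and the part of these in the Psmd13 values and the non-ATPase sum was not tested. Psmd6 had 596 and 655 reads and an FPKM of 28.7 and 51.5 (0.85, interval 0.68 to 1.008). Psmd7, Psmd13 and Psmd6 encode lid subunits, and so do Psmd3 (0.72), Psmd14 (0.68), Psmd11 (0.66), Psmd12 (0.32) and Psmd8. Psmd8 is the lid gene with the smallest change, 0.04, from 1706 and 1070 reads (interval -0.08 to 0.15). The large scaffolds Psmd2 (0.68) and Psmd1 (0.42) and the ubiquitin receptor Psmd4 (0.54) belong to the base. The lid genes, a set formed after the values were seen, summed to 0.66 (interval 0.61 to 0.70) and the 3 base genes to 0.57 (interval 0.48 to 0.65).

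Chaperones that build the core held the largest change of all members. Psmg3 (ENSMUSG00000029551, chromosome 5, from 139823592 to 139826885) encodes a partner of Psmg4 in alpha ring assembly. Its reads numbered 64 and 183 and its FPKM was 2.66 and 12.5, a ratio of 4.68 and a log2 ratio of 2.23 (interval 1.81 to 2.66). Its partner Psmg4 had 303 and 188 reads and an FPKM of 64.2 and 65.2 (0.02, interval -0.25 to 0.29). The chaperone pair Psmg1 and Psmg2 rose by similar amounts, with log2 ratios of 0.63 (interval 0.45 to 0.80) and 0.87 (interval 0.65 to 1.09). Psmg1 had 528 and 498 reads, and Psmg2 had 318 and 355. Of the 4 core chaperones 3 rose, 75% beside 23.9% of all genes, and 2 with TMM scaling, 50% beside 19.3%.

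The chaperones of the 19S base did not move together. Psmd5 rose, with 451 and 429 reads and an FPKM of 7.68 and 11.95 (0.64, interval 0.44 to 0.83). It was the only 1 of the 3 to rise, 33.3% beside 23.9% of all genes, and 0 rose with TMM scaling. Psmd9 had 465 and 326 reads (0.20, interval -0.01 to 0.40). Psmd10, which encodes gankyrin, had 301 and 156 reads and an FPKM of 28.0 and 23.7 (-0.24, interval -0.53 to 0.05).

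Of the 5 activator genes 0 rose and 0 fell, beside 23.9% and 24.0% of all genes. Psme1 (ENSMUSG00000022216, chromosome 14, from 55578123 to 55581529) had 1992 and 1290 reads and an FPKM of 52.7 and 55.8 (0.08, interval -0.02 to 0.18). Its partner Psme2 had 1890 and 1575 reads and an FPKM of 84.5 and 115 (0.45, interval 0.35 to 0.54). These 2 genes lie 5911 bases apart and their proteins form 1 ring, but the ratio of Psme1 to Psme2 reads at week-3 was 0.777 times that at week-0 (interval 0.705 to 0.857). Against the constitutive core, Psme1 and Psme2 together were at 0.816 (interval 0.775 to 0.860). Psme2b, a copy of Psme2 in which reads of Psme2 could be counted, had 18 and 10 reads.

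Psme3, the nuclear activator, had 459 and 412 reads and an FPKM of 19.5 and 28.7 (0.55, interval 0.36 to 0.75) and kept its ratio to the core at 0.993 (interval 0.866 to 1.14). Psme4, which encodes the PA200 cap, had 200 and 110 reads and an FPKM of 3.44 and 3.09 (-0.15, interval -0.50 to 0.19). Its ratio to the core was 0.608 times the week-0 value (interval 0.477 to 0.772). The inhibitor Psmf1 had 441 and 253 reads and an FPKM of 6.71 and 6.30 (-0.09, interval -0.32 to 0.13). Psme4 and Psmf1 were thus not detectably changed, in libraries where the core they bind was higher.

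The tissue-restricted genes had few reads. Psma8, the meiotic alpha subunit, had 40 and 12 reads, FPKM values of 3.72 and 1.82, and was the member that fell (-1.03, interval -2.09 to -0.07). Psmb11, the thymic beta subunit, had 2 reads and 0 reads, and 0 reads allow a level of up to 0.772 CPM at week-3. Psmc3ip, the recombination factor, had 130 and 115 reads and a log2 ratio of 0.53 (interval 0.16 to 0.91), and shares 385 of its 1818 exon bases with Mlx. Mlx had 110 and 151 reads, and the part of these in the Psmc3ip values was not tested.

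Levels differed far more between subunits than between time points. On the FPKM scale, constitutive core genes at week-0 ran from 19.4 for Psmb7 to 256 for Psmb1, with a median of 104, and at week-3 from 18.7 to 377 for the same genes. The 19S genes ran from 9.51 for Psmd1 to 121 for Psmd8 at week-0, with a median of 30.9. At week-3 their lowest was again Psmd1, at 12.7, and their highest was Psmd7, at 206.

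These levels depend on the length the authors divided by. That length, recovered as reads over FPKM, was between 0.324 and 5.35 times the length of the principal transcript in GENCODE M21, with a median of 2.26. Against all exon bases annotated for a gene the median was 1.27 times. For Psmb6 the length was 3107 bases and for Psme1 5949, each longer than the span of the gene's coordinates, so it is not their exon length. FPKM levels and shares between genes are uncertain to that extent. Per kilobase of the principal transcript, Psmb6 had the highest level of the core genes, 606 and 760 CPM per kilobase, and Psmb7 the lowest, 59.7 and 57.4. By FPKM the share of Psmb8 in the sum of Psmb8 and Psmb5 was 29.3% at week-0 and 26.3% at week-3, whereas by principal transcript it was 50.3% and 46.6%. The share of Psmb9 against Psmb6 was 14.7% and 13.5% by FPKM and 17.1% and 15.8% by principal transcript. Psmb10 was the larger of its pair on both scales, with 89.8% and 91.6% by FPKM and 73.6% and 77.5% by principal transcript. The coefficient of variation among core genes was 0.619 at week-0 and 0.587 at week-3 by FPKM, and 0.735 and 0.657 by principal transcript. Among 19S genes it was 0.710 and 0.772 by FPKM, but 0.540 and 0.447 by principal transcript, so the order of the 2 parts and the direction for the 19S genes turn with the length. Changes between libraries do not depend on it.

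**Figure D3:**
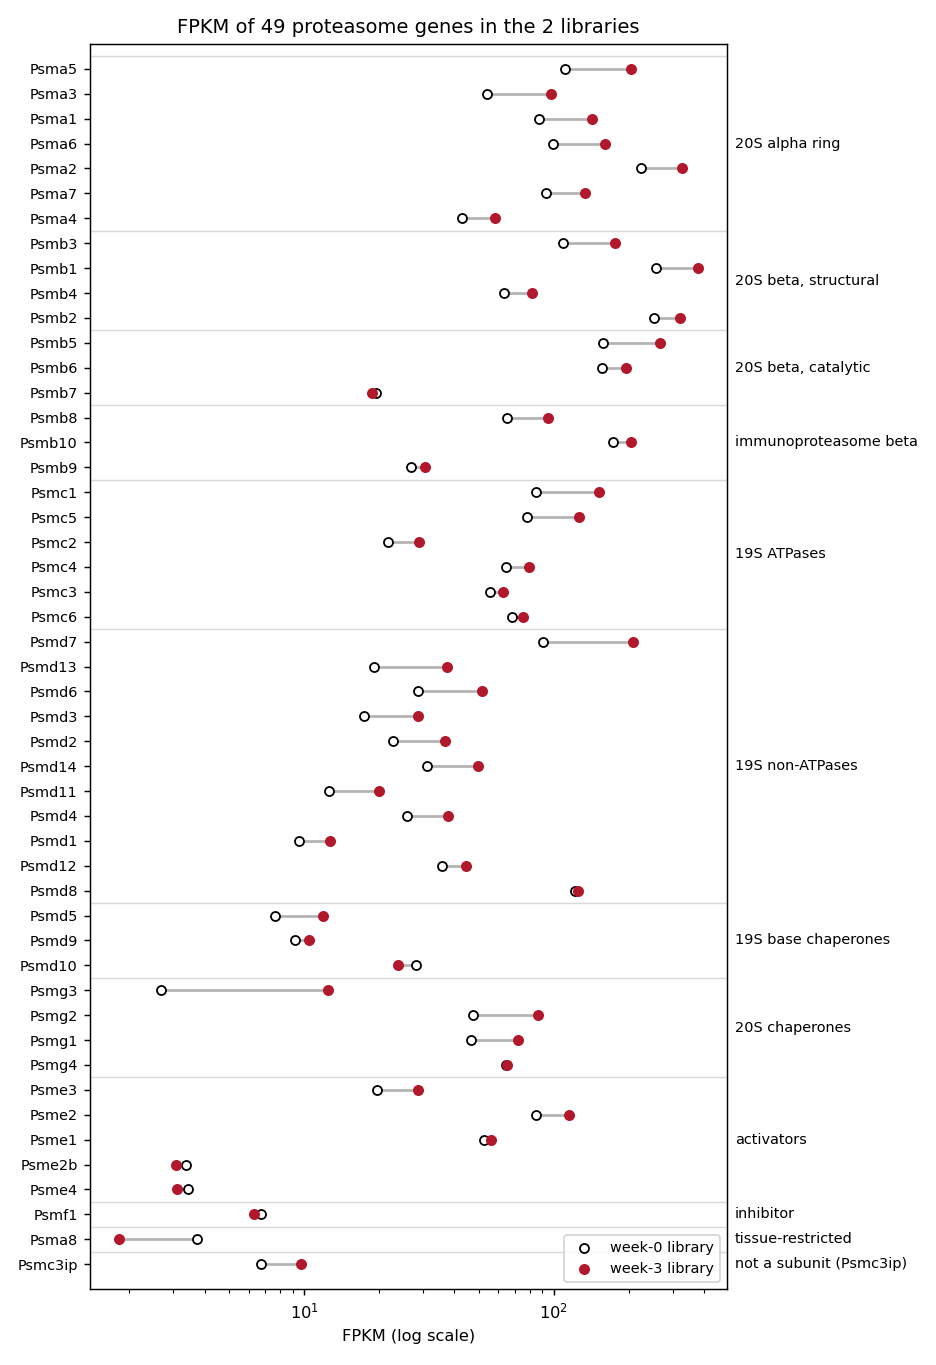
FPKM on a log axis for the 49 members compared, with open circles for the week-0 library and filled circles for the week-3 library, in rows grouped by role. Grey lines join the libraries and are short beside the spread between genes, except for Psmg3, which went from 2.66 to 12.5.

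Partner genes outside the name rule were called about as often as all genes. A list of 20 genes that bind, assemble or induce proteasomes had 19 in the tables, with a median log2 ratio of 0.18. Of these 3 rose, 15.8% beside 23.9% of all genes, and 4 fell, 21.1% beside 24.0%. Uchl5, a deubiquitinase of the 19S particle, rose, with 726 and 852 reads and FPKM values of 21.4 and 41.1 (0.94, interval 0.80 to 1.09). The stabiliser Ecm29, listed as AI314180, rose by 0.80, and Ddi2, the protease that activates the Nfe2l1 factor, by 0.89 (interval 0.64 to 1.14). The ubiquitin receptor Adrm1, which anchors Uchl5, was at 0.18, the deubiquitinase Usp14 at 0.52 and the core assembly factor Pomp at 0.01 (interval -0.11 to 0.13). Nfe2l1 had 209 and 147 reads and an FPKM of 2.19 and 2.52 (0.20, interval -0.11 to 0.51). Its relative Nfe2l2 fell from an FPKM of 27.9 to 18.5 (-0.59, interval -0.80 to -0.39). Ubqln2 (-1.48), which carries ubiquitinated proteins to the proteasome, and the proteasome-binding zinc finger genes Zfand5 (-1.06) and Zfand2a (-0.97) also fell.

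Ubiquitin and unfolding genes had a median of 0.14, near the 0.07 of all genes. Of 8 genes 2 rose and 1 fell, 25% and 12.5% beside 23.9% and 24.0% of all genes, and neither rise passed with TMM or median-of-ratios scaling. The polyubiquitin gene Ubb had 64946 and 21110 reads and an FPKM of 4277 and 2273 (-0.91, interval -0.93 to -0.89). Rps27a, which encodes ubiquitin fused to a ribosomal protein, rose by 0.61, and Ube2k, a ubiquitin-conjugating enzyme, by 0.62. The unfoldase Vcp, with 1226 and 1087 reads, was at 0.54, and the ubiquitin-activating enzyme Uba1 at -0.02. Ubb was thus lower in the library in which most proteasome genes were higher.

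Genes of class I peptide loading, which act after the immunoproteasome, had a median of -0.13. Of 10 genes 3 rose and 2 fell, near the 23.9% and 24.0% of all genes. The peptide transporter genes Tap1 and Tap2 were at 0.12 (interval -0.03 to 0.27) and -0.15 (interval -0.30 to -0.01). B2m, the light chain of class I molecules, fell from an FPKM of 3655 to 1853 (-0.98), and the trimming peptidase Erap1 from 17.2 to 8.46 (-1.03). The 3 that rose, Calr (1.19), Canx (1.16) and Pdia3 (0.61), are general chaperones of the endoplasmic reticulum. With TMM or median-of-ratios scaling Pdia3 stays under the limit, and the class I activator Nlrc5 (-0.55) passes it downward.

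Interferon signalling genes, which control the immunoproteasome, had a median of -0.47. Of 9 genes 2 rose and 4 fell, 22.2% and 44.4% beside 23.9% and 24.0% of all genes. Irf1, a known activator of Psmb9, had 1168 and 293 reads and an FPKM of 31.9 and 13.1 (-1.29, interval -1.48 to -1.10). Irf9 (-1.30), Stat2 (-1.21) and the feedback inhibitor Socs1 (-1.53) fell as well. Ifngr2 (1.15) and Irf8 (0.83) rose. Over the same libraries, the 3 immunoproteasome genes had log2 ratios between 0.18 and 0.55.

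**Figure D4:**
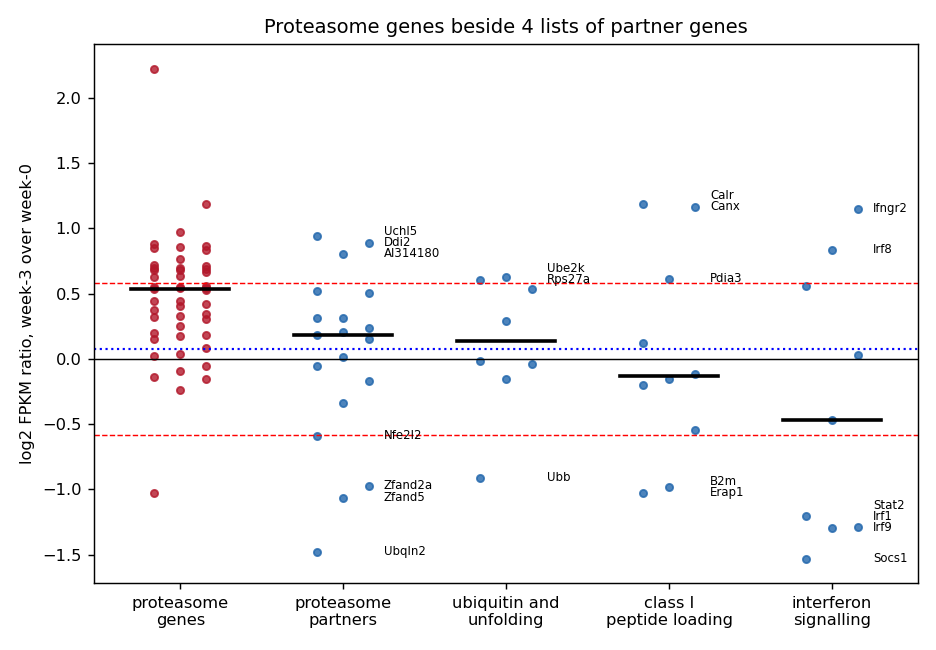
Log2 FPKM ratio of week-3 over week-0 (y axis) for each gene of the proteasome and of 4 partner lists, with horizontal bars at the medians, a dotted line at the median of all genes and dashed lines at 1.5 times. Labelled genes of the partner lists passed the limit. The proteasome genes lie mostly above the dotted line (median 0.53), and 4 of the 9 interferon signalling genes lie below the lower dashed line.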

How the data were processed

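LSKs were sorted, their RNA was amplified as cDNA with a SMARTer low input kit, and the libraries were sequenced from both ends. After trimming, the authors used TopHat2 2.0.9 for mapping to GRCm38. The deposited tables hold counts, which are whole reads per gene with no normalization, and FPKM, which the authors scaled by library size and a length per gene. The counting tool and annotation release are not given in the sources used here. FPKM ratios and ratios of reads per total differed by at most 9.01e-05 on the log2 scale in well covered genes.

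The 2 tables were joined by gene identifier. No test was run, since there is 1 library per time point. Changes were called at 1.5 times with at least 20 reads, beside all genes, and intervals at 95% were exact. The interval and call procedures were run on simulated data with independent reads, which does not show how they hold for amplified cDNA. Coordinates are those of the tables (GRCm38). Strand, overlaps and transcript lengths came from GENCODE M21, where 37 of 50 members had identical coordinates. Sequence around gene starts came from RefSeq. Members and lists were chosen with earlier results of these data known. A few genes of the lists are not reported here and were left out of their counts, sums and medians. Named genes were set by role, by the 5 highest and 5 lowest ratios and by passing 1.5 times in a list. Alternatives were TMM (edgeR 4.0.16) and median-of-ratios (DESeq2 1.42.0) scaling, read minimums of 0 and 100, a fold of 2 and a pseudocount of 1. Python 3.11.15, scipy 1.17.1 and R 4.3.3 were used.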

Additional observations from a re-analysis of the deposited data

How the results depend on the processing

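With 1 library per time point no library could be left out, and no paired analysis was possible because the groups share no replicates. TMM scaling lowered every log2 ratio by 0.11 and median-of-ratios scaling by 0.09. The number of members that rose was then 12 and 16 in place of 19, all among those 19, beside 19.3% and 20.1% of all genes. The 7 lost with TMM were Psma6, Psmb3, Psmd2, Psmd5, Psmd11, Psmd14 and Psmg1. Counts by role and list under these scalings were added after seeing the data. The members' median was 0.42 and 0.44, the constitutive 20S group 0.45 and 0.47, the 19S group 0.43 and 0.46 and the immunoproteasome 0.25 and 0.27, each still positive. Taking the median of the members in place of summed reads gave 0.66 for the 19S group and 0.25 for the immunoproteasome. It gave 0.33 for the constitutive catalytic genes, 0.68 for the 19S non-ATPases and 0.08 for the activators. Each of these lies outside the interval of the summed reads. A fold limit of 2 left 2 members up, Psmg3 and Psmd7. With at least 100 reads 0 members fell, since Psma8 has 52 reads in all. Level shares moved with the gene length. By principal transcript, an alternative chosen after seeing the data, they were 50.3% and 46.6% for Psmb8, 17.1% and 15.8% for Psmb9 and 73.6% and 77.5% for Psmb10, at week-0 and week-3. The coefficient of variation became 0.735 and 0.657 for the core and 0.540 and 0.447 for the 19S genes. The remaining alternatives left the counts of members that rose or fell within 1.5 times and the median over all members within counting error.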
